A study of Mus musculus with 6 samples.

Results

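The genes described here are 37 Monocyte, macrophage and Fc receptor genes, measured in hematopoietic stem cells (HSCs) of WT and CD74-/- mice. They were taken from a list of gene symbols, with the row of the highest mean where a symbol occurred more than once. All 37 were found among the 19846 genes of the table. RNA was sequenced from CD34-/LSK cells, sorted from the bone marrow of 3 WT and 3 CD74-/- mice with 1000 cells per library, in order to follow which genes respond to the loss of CD74. CD74, also named the invariant chain, is a chaperone of MHC class II and a surface receptor for the cytokine MIF. Both groups were untreated C57BL/6 mice that differed by the CD74-/- genotype, and the study's methods give an age of 6 to 8 weeks for all mice. The CD74-/- genotype is carried by all cells of these mice, and the libraries were taken as 1 mouse each.

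LSK cells carry the surface proteins Sca-1 and c-Kit and lack the antigens of mature blood lineages, and the CD34- fraction of them holds the long-term HSCs. Monocytes arise from these cells through myeloid progenitors under M-CSF, the ligand of the Csf1r receptor, and leave the marrow through Ccr2. They carry receptors for the constant (Fc) part of IgG, which signal through adaptor proteins with an immunoreceptor tyrosine-based activation motif (ITAM), and they can give rise to tissue macrophages, which engulf dying cells and nuclei expelled by erythroblasts in the marrow.

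Values are normalized counts, that is, reads counted in a gene divided by the size factor of the library, and each is given in the order of replicates 1, 2 and 3. The depth was 14390534 to 16198678 reads in genes. The Cd74 gene itself had 3287, 2459 and 3107 normalized counts in the WT libraries and 46.0, 72.0 and 72.8 in CD74-/- cells, which follows the genotype labels. RNA of the sort antigens and of stem cell genes was present in all 6 libraries, with a summed level of 53952 to 62430 in WT and 59426 to 68603 in CD74-/- cells over 15 such genes, 1 of which was lower and 2 of which were higher at an unadjusted limma p under 0.05. The lower gene was Esam, an adhesion molecule of stem cells, at 911 ± 62.6 in WT and 427 ± 123 in CD74-/- cells (SD, n = 3). The higher genes were Cd34, the antigen that the sort selects against, at 6228 ± 863 in WT and 9533 ± 2370 in CD74-/- cells, and Cd48, an antigen of progenitors, at 4362 ± 717 and 8674 ± 4545. Their part in the results on monocyte genes was not tested, and their limma adjusted p-values were 0.467, 0.588 and 0.607. At an unadjusted limma p under 0.05, 4.60% of all tested genes were lower and 3.14% were higher. Of the lineage antigens, Itgam (CD11b) had 616, 176 and 243 normalized counts in the WT libraries and 120.3, 52.7 and 69.7 in CD74-/- cells, so that RNA of a gated-out antigen was detected in every library.

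Of the 37 genes, 36 reached a mean of 10 normalized counts and were tested. In 30 of these 36 genes (83.3%) the log2 fold change of CD74-/- against WT was below 0, as it was in 52.3% of the 14892 tested genes. The median log2 fold change of the 36 genes was -1.22, and that of all tested genes was -0.03. None of them passed the test over all genes (limma, adjusted p under 0.05), in which 0.0470% of the tested genes were called lower and 0.0403% higher. At a raw (unadjusted) limma p under 0.05, 17 of the 36 genes (47.2%) were lower and 0 were higher, beside 4.60% and 3.14% of all tested genes, and edgeR gave 8 lower genes at this threshold, beside 3.91%. Every CD74-/- library lay below every WT library in 10 of the 36 genes (27.8%), namely Ccr2, Ly6c2, Fcer1g, Sirpa, Mpeg1, F13a1, Adgre1, C1qa, Mrc1 and Aif1, compared with 7.47% of all tested genes. The opposite order was seen in 1 gene, Ms4a6c, compared with 5.35%. For these 11 genes the two-sided exact permutation test gave p = 0.1, the smallest value that 3 libraries against 3 allow. The result with DESeq2 on the recovered reads was 1 call, Fcer1g, where 0.584% of the tested genes were called lower and 0.329% higher. DESeq2 on all genes also called Fcer1g alone, with 0.505% of genes lower and 0.250% higher, while edgeR (0.0403% of genes in each direction) and limma-voom (0.0201% in each direction) called none of the 36.

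Genes that are low in the mutant could pass the filter through their WT level alone. This applied to Fcgr1, C1qa, Mrc1 and Vcan, whose mean in CD74-/- cells was under 10 normalized counts. Among the 32 genes with a mean of at least 10 in both groups, the median log2 fold change was -1.15 and 15 genes (46.9%) were lower at a raw p under 0.05, beside -0.02 and 3.90% over the 13784 genes that met the same condition. Every CD74-/- library lay below every WT library in 8 of these 32 genes (25.0%), beside 6.70% of the 13784 genes. In bulk RNA of 1000 cells, fewer cells of a type and less RNA per cell cannot be told apart.

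**Figure D1:**
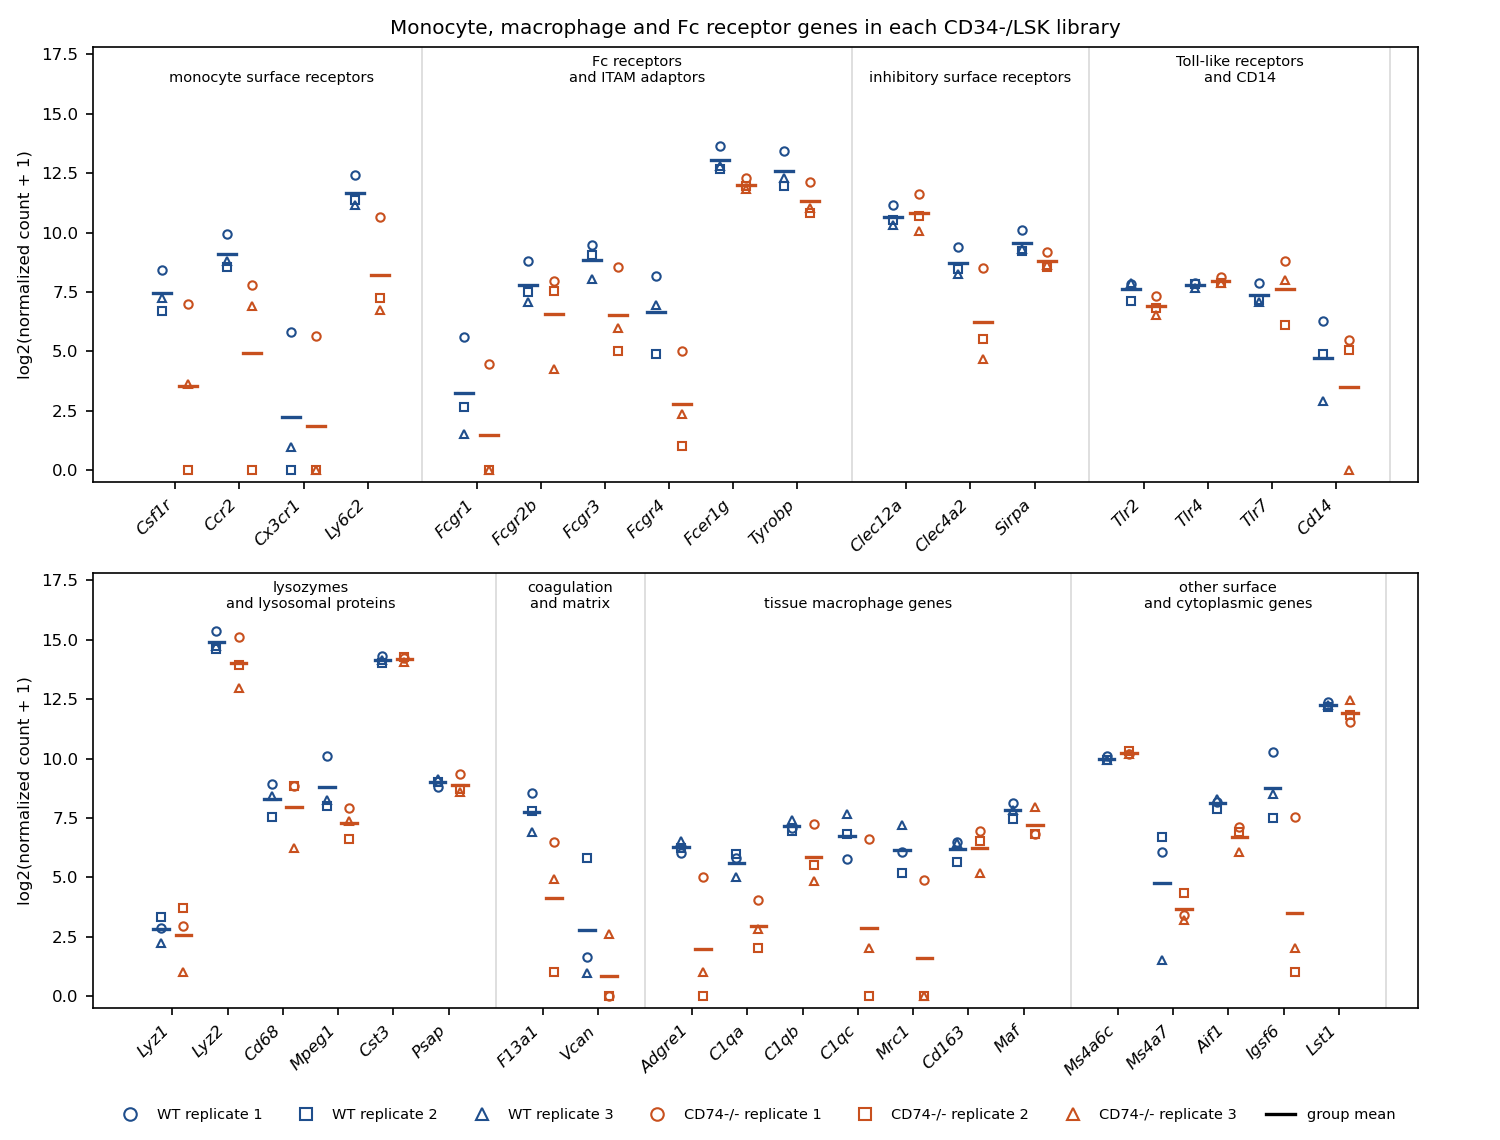
Level of each of the 37 genes in each library, as log2(normalized count + 1) on the vertical axis, with WT in blue, CD74-/- in orange, 1 symbol per replicate number and a bar at the group mean of 3 libraries. The CD74-/- libraries of Ly6c2, Adgre1, C1qa, Mrc1 and F13a1 lie below all WT libraries, and CD74-/- replicate 1 (circle) is the highest of its group in 30 of the 36 tested genes.

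Markers of some other blood cells moved in the same libraries. Their counts stand beside 4.60% of all tested genes that were lower and 3.14% that were higher at a raw limma p under 0.05. The summed level of 16 neutrophil markers was 164208 to 1018378 normalized counts in the WT libraries and 34904 to 162013 in CD74-/- cells, and 13 of the 16 were lower at a raw limma p under 0.05. For 16 B cell markers the sums were 7281 to 20074 in WT and 3462 to 7730 in CD74-/- cells, with 13 lower, and for 16 erythroid markers they were 39936 to 60862 and 26174 to 39940, with 7 of 15 tested genes lower. No marker of these 3 lists was at 0 in all CD74-/- libraries, and none is a member of the monocyte list. Of the dendritic cell markers 1 of 13 tested genes was lower, with sums of 12657 to 14085 in WT and 13428 to 14520 in CD74-/- cells. Siglech and Cd209a were at 0 in all CD74-/- libraries, and Siglech was uneven in WT, at 116, 1.79 and 127. The log2 fold change was below 0 in 8 of the 13 and above 0 in 5, with a median of -0.44. Every CD74-/- library lay below every WT library for Siglech and above every WT library for Flt3, beside 7.47% and 5.35% of all tested genes. Of 10 tested T and NK cell markers none had a raw p under 0.05. The log2 fold change was above 0 in 7 of them and below 0 in 3, with a median of 0.18. Their sums were 3750.4 to 8596.0 in WT and 5895.1 to 12408.5 in CD74-/- cells, although Cd3g and Cd8a were at 0 in all CD74-/- libraries. Of 7 tested mast cell and basophil markers 1 was higher and none lower, although 6 had a log2 fold change below 0 (median -0.84) and DESeq2 called Prss34 lower, with Prss34 and Fcer1a at 0 in all CD74-/- libraries. WT replicate 1 had the highest sum of neutrophil, B cell and erythroid markers of all libraries. The part of these cells in the results on monocyte genes was not tested.

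**Figure D2:**
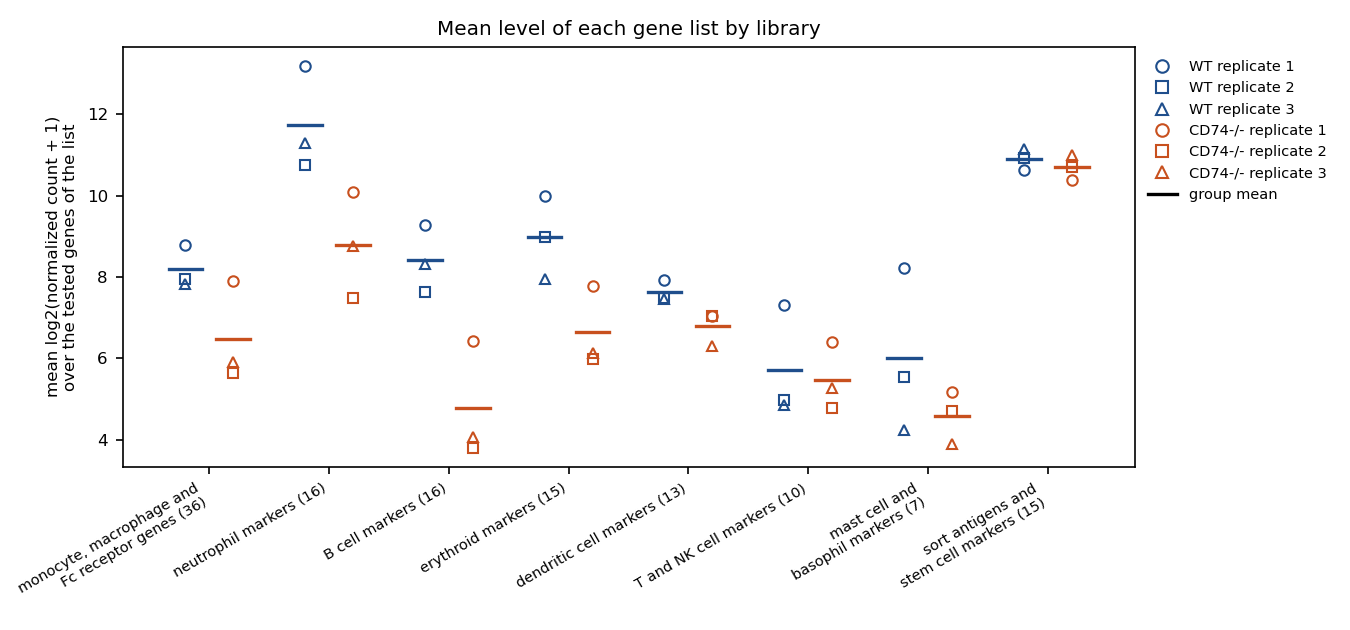
Mean of log2(normalized count + 1) over the tested genes of each list (number of genes in brackets) in each library, with WT in blue, CD74-/- in orange and a bar at the group mean. The monocyte, macrophage and Fc receptor genes lie at 8.79, 7.94 and 7.82 in WT and at 7.89, 5.64 and 5.92 in CD74-/- cells, so that CD74-/- replicate 1 lies above WT replicate 3. The neutrophil, B cell and erythroid lists show a larger distance between the group means, and the sort antigens and stem cell markers overlap.

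The surface receptors of classical and patrolling monocytes had a median log2 fold change of -3.68, and 3 of 4 were lower at a raw p under 0.05. For this group and those that follow, the share over all tested genes was 4.60%. Ly6c2, which encodes the antigen Ly6C of inflammatory monocytes, had 5474, 2613 and 2304 normalized counts in the WT libraries and 1602, 152 and 106 in CD74-/- cells. The mean was 3464 ± 1748 in WT and 620 ± 851 in CD74-/- cells (SD, n = 3), and the lowest WT library was above the highest CD74-/- library. The log2 fold change was -3.43 with a standard error of 0.84 and an adjusted p of 0.369 (limma). With DESeq2 it was -2.48, with an adjusted p of 0.436. Without CD74-/- replicate 1 the adjusted p was 0.00221 (limma) with a log2 fold change of -4.65, and its range for all alternatives was 0.00221 to 0.952. Of the 50-base words of its exons, 14.5% also occur in other genes, among them Ly6c1, so that reads of the 2 paralogs may be split.

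Ccr2, the chemokine receptor through which monocytes leave the marrow, had 993, 379 and 444 normalized counts in the WT libraries and 223, 0 and 121 in CD74-/- cells. The groups did not overlap and the log2 fold change was -4.20 (SE 1.62, limma adjusted p = 0.588), but -2.40 with DESeq2 and -1.74 without CD74-/- replicate 2, the library at 0. Csf1r, the receptor of M-CSF and IL-34, had 346, 102 and 152 in WT and 128, 0 and 11.3 in CD74-/- cells. Here CD74-/- replicate 1 lay above WT replicate 2, so that the groups overlapped, and the log2 fold change was -3.92 (SE 1.44, limma adjusted p = 0.583), but -2.10 with DESeq2 and -2.15 without CD74-/- replicate 2. Csf1r lies at chr18:61100598-61132149 (GRCm38), 287.9 kb from Cd74, on the chromosome that carries the deletion, and 873 bases of its exons overlap Hmgxb3 on the opposite strand. Cx3cr1, the fractalkine receptor of patrolling monocytes, was read in 3 libraries, with 54.6 and 0.95 in WT replicates 1 and 3 and 48.9 in CD74-/- replicate 1, and was at 0 in the others. Its log2 fold change of -0.37 had an interval of -5.39 to 4.64, and its direction rested on single libraries.

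All 6 genes of Fc receptors and ITAM adaptors had a log2 fold change below 0, with a median of -1.50, and 4 of them had a raw p under 0.05. Over all tested genes these shares were 52.3% and, for lower genes, 4.60%. Fcer1g, the common gamma chain that the activating receptors need for surface expression and signaling, had 12791, 6592 and 7086 normalized counts in the WT libraries and 4965, 3945 and 3640 in CD74-/- cells. The mean was 8823 ± 3445 in WT and 4183 ± 694 in CD74-/- cells (SD, n = 3), or 47.4% of WT, without overlap of the groups. The log2 fold change was -1.02 (SE 0.27) with an adjusted p of 0.460 in limma and of 0.0280 in DESeq2, with a range of 0.0280 to 0.952 for all alternatives. Tyrobp, which encodes the adaptor DAP12 of other activating receptors, had 11014, 3988 and 5073 in WT and 4519, 1807 and 2080 in CD74-/- cells. Only CD74-/- replicate 1 reached into the WT range, and the log2 fold change was -1.24 (SE 0.42, limma adjusted p = 0.548).

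Among the receptors themselves, Fcgr4, the mouse receptor for IgG2a and IgG2b, had 289, 28.7 and 123 normalized counts in the WT libraries and 31.3, 1.01 and 4.10 in CD74-/- cells. CD74-/- replicate 1 lay just above WT replicate 2, and the mean of the mutant was 8.26% of WT, with a log2 fold change of -3.88 (SE 1.21, limma adjusted p = 0.519). Fcgr3, an activating receptor of low affinity, had 708, 525 and 260.2 in WT and 379, 31.4 and 62.5 in CD74-/- cells (log2 fold change -2.32, SE 0.80, limma adjusted p = 0.563). For both genes, CD74-/- replicates 2 and 3 lay below every WT library. Fcgr2b, the inhibitory receptor, which is also known from B cells, showed another order. It had 442, 181 and 133 in WT and 245, 184 and 18.4 in CD74-/- cells, and the interval of its log2 fold change ran from -3.18 to 0.77. The ratio of Fcgr2b to Fcgr3 reads was 0.345 to 0.624 in WT, 0.646 and 0.295 in CD74-/- replicates 1 and 3, and 5.84 in replicate 2. Of the exon words of Fcgr3 9.6% occur in other genes, Fcgr2b being the one, which leaves some of their reads without a sure origin. Fcgr1, the receptor of high affinity, was low, with 47.1, 5.38 and 1.89 in WT and 21.5, 0 and 0 in CD74-/- cells, and the groups overlapped.

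The start regions of some of these genes are shown because 17 of the 36 genes were lower at a raw p under 0.05 and because PU.1, the ETS factor encoded by Spi1, is known to bind GAGGAA in myeloid promoters. RefSeq windows (GRCm38.p6) of 250 bases before to 50 bases after a gene start were at hand for 27 of the 37 genes. GAGGAA was found on either strand in 15 of 27 genes (55.6%), compared with 31.3% of 27025 genes. Matches also lay in genes that were not lower at a raw p under 0.05, such as Fcgr1, Cst3 and Psap. The lower genes Ccr2, Fcer1g, Clec4a2 and Mpeg1 had none. Whether matches go with the fold changes was not tested. Each window of Fcgr1, Fcgr3, Fcgr4 and Igsf6 held 1 match, read on the opposite strand as TTCCTC, beginning 55, 6, 22 and 39 bases before the start, while Fcer1g held none and Ly6c2 held 2. Matches are in capitals, and sequences run 5′ to 3′ with the gene.
Fcgr1, chr3:96293920-96294219, minus strand: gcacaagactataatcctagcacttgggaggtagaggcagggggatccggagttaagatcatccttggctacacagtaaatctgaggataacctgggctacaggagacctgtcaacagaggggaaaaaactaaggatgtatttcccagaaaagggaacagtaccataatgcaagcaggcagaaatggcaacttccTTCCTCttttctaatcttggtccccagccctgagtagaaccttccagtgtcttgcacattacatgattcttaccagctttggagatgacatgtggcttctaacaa
Fcgr3, chr1:171059354-171059653, minus strand: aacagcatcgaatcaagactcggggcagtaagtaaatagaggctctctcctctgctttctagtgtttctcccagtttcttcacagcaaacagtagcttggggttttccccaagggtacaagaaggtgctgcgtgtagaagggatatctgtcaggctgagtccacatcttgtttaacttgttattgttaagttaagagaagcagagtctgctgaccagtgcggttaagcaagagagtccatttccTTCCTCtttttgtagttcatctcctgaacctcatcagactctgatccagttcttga
Fcgr4, chr1:171018676-171018975, plus strand: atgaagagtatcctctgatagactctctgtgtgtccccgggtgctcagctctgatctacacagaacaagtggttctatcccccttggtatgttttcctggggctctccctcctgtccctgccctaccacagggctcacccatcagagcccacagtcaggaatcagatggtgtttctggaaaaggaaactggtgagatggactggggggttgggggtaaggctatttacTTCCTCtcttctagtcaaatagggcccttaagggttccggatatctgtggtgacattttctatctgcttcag
Fcer1g, chr1:171234300-171234599, minus strand: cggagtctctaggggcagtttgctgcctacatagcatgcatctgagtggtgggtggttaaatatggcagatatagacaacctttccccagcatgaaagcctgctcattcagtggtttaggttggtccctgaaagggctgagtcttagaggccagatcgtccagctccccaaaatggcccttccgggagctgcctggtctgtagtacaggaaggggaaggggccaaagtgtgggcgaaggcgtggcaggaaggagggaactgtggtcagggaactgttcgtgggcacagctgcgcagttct
Ly6c2, chr15:75111888-75112187, minus strand: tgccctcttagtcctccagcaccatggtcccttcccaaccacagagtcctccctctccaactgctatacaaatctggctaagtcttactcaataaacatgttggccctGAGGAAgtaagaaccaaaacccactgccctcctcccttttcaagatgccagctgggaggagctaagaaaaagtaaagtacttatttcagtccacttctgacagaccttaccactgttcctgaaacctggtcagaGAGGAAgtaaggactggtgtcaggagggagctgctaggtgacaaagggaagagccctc
Igsf6, chr7:121074481-121074780, minus strand: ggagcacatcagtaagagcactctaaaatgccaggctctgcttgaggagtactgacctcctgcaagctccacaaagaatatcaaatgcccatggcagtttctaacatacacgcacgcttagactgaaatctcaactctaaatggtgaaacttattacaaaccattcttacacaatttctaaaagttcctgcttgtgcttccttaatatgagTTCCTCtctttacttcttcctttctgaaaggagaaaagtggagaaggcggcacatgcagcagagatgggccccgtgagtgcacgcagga
The extended form GAGGAAGT, which contains the first motif, occurred in 4 of the 27 genes (14.8%), C1qc, F13a1, Fcgr4 and Ly6c2, compared with 3.7% of all genes. TTGCNNAA, a form of the site of C/EBP factors, was in 14.8% of the genes and in 12.2% of all, and the TATA box TATAAA was in 1 gene (3.7%), Clec4a2, compared with 15.7%. Such a match describes the sequence and is no evidence that the factor binds there. Spi1 RNA was 1303, 1193 and 1131 normalized counts in the WT libraries and 2413, 2363 and 620 in CD74-/- cells, with a log2 fold change of 0.34 (SE 0.46, limma adjusted p = 0.868).

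Fcgr2b, Fcgr4, Fcgr3 and Fcer1g lie within 275.7 kb on chr1:170958617-171234365 (GRCm38), together with 7 other genes of the table that do not belong to the list. Of these 7 neighbours, which were looked at after the values were known, 5 were tested. Sdhc, a subunit of succinate dehydrogenase in the same stretch, had 1891, 2152 and 2166 normalized counts in the WT libraries and 4068, 4634 and 1655 in CD74-/- cells. Log2 fold changes of the 5 were 0.16 for Cfap126, 0.61 for Sdhc, 0.36 for Pcp4l1, 0.63 for Tomm40l and -0.50 for Apoa2, and their limma adjusted p-values were 0.695 or higher. Whether receptor genes and neighbours differed from each other was not tested.

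**Figure D3:**
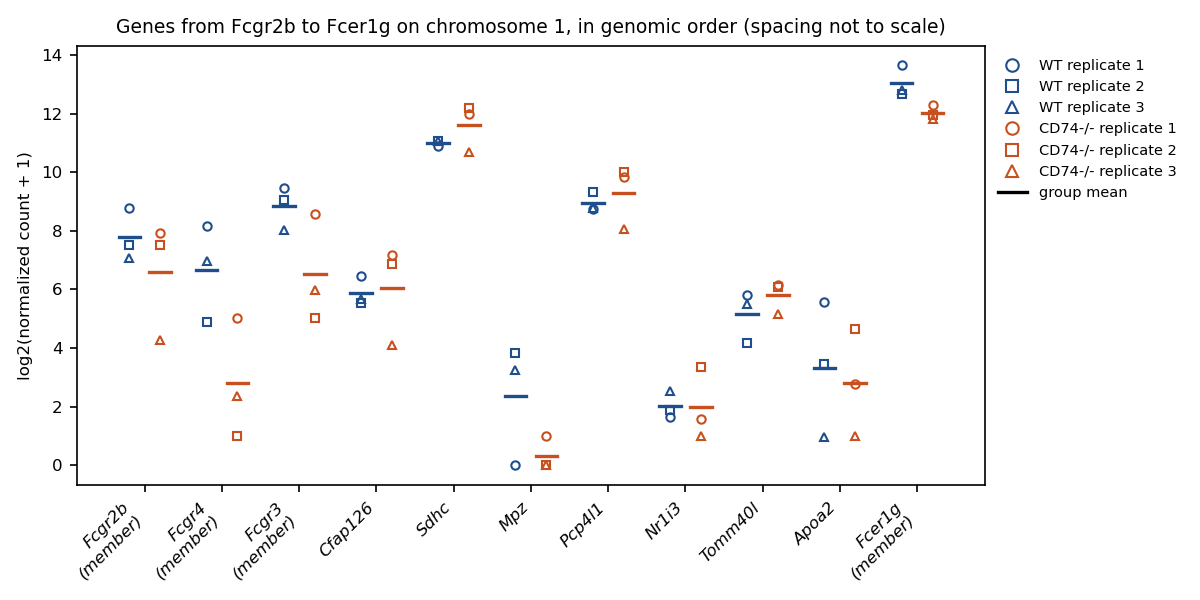
Genes of the table from Fcgr2b to Fcer1g in genomic order (spacing not to scale), with log2(normalized count + 1) of each library on the vertical axis, WT in blue, CD74-/- in orange and a bar at the group mean of 3 libraries. The group means of the 4 receptor and adaptor genes are lower in CD74-/- cells, and those of Cfap126, Sdhc, Pcp4l1 and Tomm40l are higher.

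Of the 3 receptors that carry an inhibitory motif (ITIM), Clec4a2 and Sirpa were lower at a raw p under 0.05. Clec4a2, the lectin receptor DCIR, had 674, 350.3 and 303 normalized counts in the WT libraries and 359, 44.6 and 24.6 in CD74-/- cells (log2 fold change -2.47, SE 0.84, limma adjusted p = 0.556). Sirpa, the receptor of the "do not eat me" ligand CD47, had 1092, 598 and 640 in WT and 585, 375 and 393 in CD74-/- cells, where the highest mutant library lay just below the lowest WT library (log2 fold change -0.76, SE 0.33, limma adjusted p = 0.639). Clec12a, a lectin receptor of myeloid cells that is also known from progenitors, had 2295, 1461 and 1256 in WT and 3164, 1676 and 1078 in CD74-/- cells. Its log2 fold change was 0.15 with an interval of -0.71 to 1.00, and CD74-/- replicate 1 was the highest of the 6 libraries. Without CD74-/- replicate 1 the adjusted p of Clec4a2 was 0.0444 (limma) with a log2 fold change of -3.61, the range over all alternatives being 0.0444 to 0.952.

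Toll-like receptors sense microbial products, and CD14 presents lipopolysaccharide to Tlr4. None of these 4 genes had a raw p under 0.05, and their median log2 fold change was -0.27. Tlr4 had 235, 227 and 199.6 normalized counts in the WT libraries and 275, 236 and 235 in CD74-/- cells, a log2 fold change of 0.17 with an interval of -0.59 to 0.93. Tlr2, the receptor of bacterial lipoproteins, had 230.1, 137 and 237 in WT and 161, 112 and 92.2 in CD74-/- cells, and Tlr7, a sensor of single-stranded RNA, had 233, 143 and 135 in WT and 445, 69.0 and 256 in CD74-/- cells. The groups overlapped for both, and the log2 fold changes were -0.72 (SE 0.45) and 0.27 (SE 0.64). Cd14 was low and uneven, with 77.1, 28.7 and 6.62 in WT and 43.0, 32.4 and 0 in CD74-/- cells.

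Among the lysozymes and lysosomal proteins, 1 of 5 tested genes, Mpeg1, had a raw p under 0.05. Mpeg1, which encodes the pore-forming protein perforin-2 of macrophages, had 1099, 254 and 304 normalized counts in the WT libraries and 241, 97.3 and 163 in CD74-/- cells. The groups did not overlap, by a margin of 254 against 241, and the log2 fold change was -1.48 (SE 0.58, limma adjusted p = 0.588). Lyz2, the lysozyme of the myeloid lineage, had 42078, 24998 and 27049 in WT and 35721, 15414 and 8012 in CD74-/- cells. Its groups overlapped through CD74-/- replicate 1, and the log2 fold change was -0.90 (SE 0.45, limma adjusted p = 0.668). Lyz1, the lysozyme of Paneth cells, stood under the filter, with 3.78 to 8.96 in WT and 1.02 to 12.2 in CD74-/- cells. It shares 16.1% of its exon words with other genes, here Lyz2, and its reads were at most 0.000789 of those of Lyz2 in any library.

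Cst3, the secreted protease inhibitor cystatin C, had 20588, 16651 and 18005 normalized counts in the WT libraries and 19124, 19539 and 17032 in CD74-/- cells. The log2 fold change of 0.01 had an interval of -0.38 to 0.41, the narrowest of the 36 genes. Psap, the precursor of the saposins that assist lipid breakdown in lysosomes, had 445, 522 and 571 in WT and 649, 419.8 and 386 in CD74-/- cells (interval -0.80 to 0.58). Cd68, a glycoprotein of macrophage lysosomes, had 492, 185 and 342 in WT and 464, 453 and 73.8 in CD74-/- cells, with an interval of -1.85 to 1.18. The ranges of the groups overlapped for all 3 genes.

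F13a1, which encodes the A subunit of clotting factor XIII and is expressed in monocytes, had 376, 220.4 and 118 normalized counts in the WT libraries and 89.0, 1.01 and 29.7 in CD74-/- cells. The mean of the mutant was 16.8% of WT without overlap, and the log2 fold change was -3.60 (SE 1.20, limma adjusted p = 0.541), or -2.03 without CD74-/- replicate 2. Vcan, the matrix proteoglycan versican, was read in 4 libraries, and WT replicate 2 with 54.6 held most of its reads. No direction was read from it, with an interval of -6.36 to 2.50.

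The genes of tissue macrophages were low in these libraries, and 4 of 7 had a raw p under 0.05, with a median log2 fold change of -2.63. C1qa and Mrc1, which are counted among them, passed the filter through their WT level alone. Adgre1, which encodes the macrophage antigen F4/80, had 64.2, 75.3 and 91.8 normalized counts in the WT libraries and 31.3, 0 and 1.02 in CD74-/- cells. Mrc1, the mannose receptor CD206, had 65.3, 34.9 and 145 in WT and 28.4, 0 and 0 in CD74-/- cells. In both genes the WT libraries lay above all CD74-/- libraries, and most reads of the mutant came from CD74-/- replicate 1. The log2 fold changes were -4.26 (SE 1.30, limma adjusted p = 0.517) for Adgre1 and -4.51 (SE 1.44, limma adjusted p = 0.519) for Mrc1.

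C1qa, C1qb and C1qc encode the 3 chains of complement C1q and neighbour each other on mouse chromosome 4. C1qa had 55.6, 61.8 and 31.2 normalized counts in the WT libraries and 15.7, 3.04 and 6.15 in CD74-/- cells, without overlap (log2 fold change -2.63, SE 0.94, limma adjusted p = 0.580). C1qc had 53.5, 112 and 204 in WT and 95.9, 0 and 3.07 in CD74-/- cells, and C1qb had 136, 123 and 171 in WT and 151, 44.6 and 27.7 in CD74-/- cells. For these 2 chains CD74-/- replicate 1 was within the range of WT and replicates 2 and 3 were below it, with log2 fold changes of -3.88 (SE 1.47) and -1.29 (SE 0.66). With DESeq2 the value of C1qc was -1.90, and without CD74-/- replicate 2, which held no C1qc read, it was -2.45. Cd163, the scavenger receptor of hemoglobin bound to haptoglobin, is carried by tissue macrophages. It had 89.9, 49.3 and 86.1 in WT and 124, 92.3 and 35.9 in CD74-/- cells, and the interval of its log2 fold change ran from -1.36 to 1.44. Maf, a transcription factor of macrophages, had 280.4, 177 and 229.9 in WT and 112, 111 and 247 in CD74-/- cells (log2 fold change -0.63, SE 0.45, limma adjusted p = 0.740).

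Igsf6, an immunoglobulin superfamily receptor of myeloid cells, had the most negative log2 fold change of the 36 genes with limma, while with DESeq2 Fcgr4 (-3.59) and Vcan (-3.50) were below Igsf6 (-3.23). It had 1235, 181 and 367 normalized counts in the WT libraries and 185, 1.01 and 3.07 in CD74-/- cells. CD74-/- replicate 1 lay just above WT replicate 2, and replicates 2 and 3 held 1 and 3 reads. The log2 fold change was -5.24 (SE 1.46, limma adjusted p = 0.504), and without CD74-/- replicate 1 it was -7.25 with an adjusted p of 0.0126, the alternatives spanning 0.0126 to 0.952. Aif1, the calcium-binding protein Iba1 of macrophages and microglia, had 286, 235 and 312 in WT and 138, 121 and 66.6 in CD74-/- cells. Its groups were separated by 235 against 138, the spread within each was small, and the log2 fold change was -1.40 (SE 0.43, limma adjusted p = 0.517).

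Ms4a6c, a membrane protein of the MS4A family, was the 1 gene with every CD74-/- library above every WT library, at 1114, 986 and 973 normalized counts in the WT libraries and 1160, 1283 and 1174 in CD74-/- cells. The log2 fold change was 0.24 (SE 0.23, limma adjusted p = 0.797). Of its exon words 51.4% occur in other genes, and 1088 bases overlap BE692007 on the opposite strand, so that its count is uncertain. Ms4a7, a macrophage member of the same family, had 66.3, 102 and 1.89 in WT and 9.78, 19.3 and 8.20 in CD74-/- cells, with overlap through WT replicate 3. Lst1, a small adaptor-like protein of leukocytes, had 5374, 4655 and 4820 in WT and 2944, 3594 and 5644 in CD74-/- cells, and the interval of its log2 fold change was -0.90 to 0.22.

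**Figure D4:**
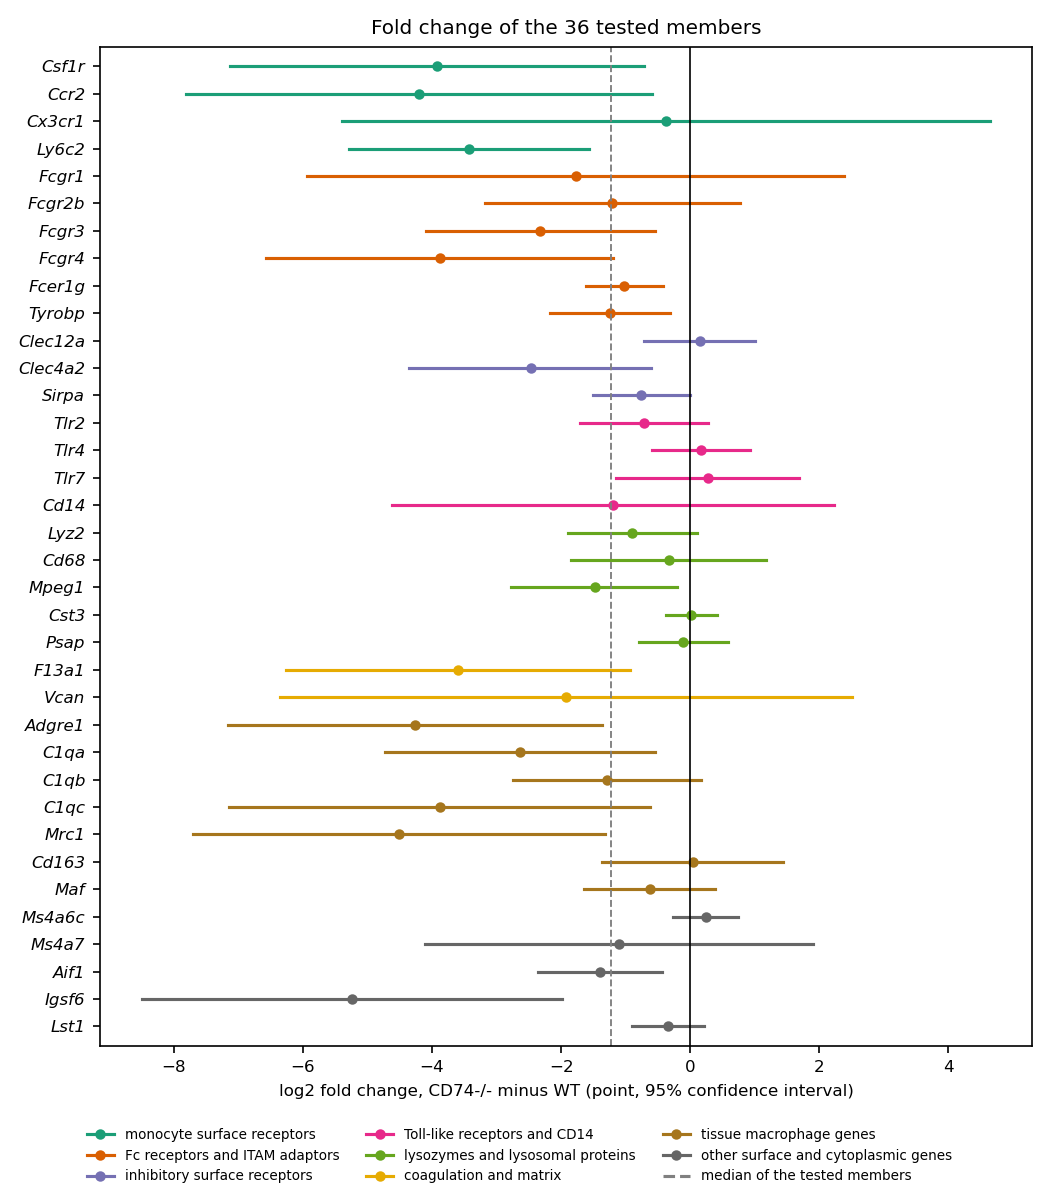
Log2 fold change of CD74-/- against WT (limma on log2(normalized count + 1), point) with its 95% confidence interval (line) for the 36 tested genes, colored by role, with a solid line at 0 and a dashed line at the median of -1.22. The points of Clec12a, Tlr4, Tlr7, Cst3, Cd163 and Ms4a6c lie above 0, and the widest intervals belong to genes with libraries at 0 reads.

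The 6 libraries did not contribute equally. CD74-/- replicate 1 was the highest of its group in 30 of 36 genes (83.3%), while this was so for 28.4% of all tested genes. In median over the 36 genes it lay 1.66 above the mean of the other 2 CD74-/- libraries on the log2 scale, compared with 0.02 over all tested genes. The distance was 4.77 for the monocyte surface receptors, 2.55 for Fc receptors and adaptors and 2.07 for tissue macrophage genes, and it was -0.08 for the last group with Ms4a6c, Aif1 and Lst1. In WT, replicate 1 was the highest in 26 of 36 genes (72.2%, compared with 37.8% of all genes), by a median of 0.79. This median was below 0 for 2 groups of genes. It was -0.09 for the tissue macrophage genes, where WT replicate 3 had 0.40, and -0.26 for F13a1 and Vcan, where WT replicate 2 had 2.28.

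Taken library by library, CD74-/- replicate 1 was below every WT library in 13 of the 36 genes (36.1%), close to the 30.4% of all tested genes. Replicate 2 was below every WT library in 26 genes (72.2%, against 32.3%) and replicate 3 in 27 genes (75.0%, against 28.9%). Without CD74-/- replicate 1, 22 of the 36 genes had no overlap on the lower side, where 11.9% of all tested genes did. This comparison was added after the values had been seen. The 22 include Fcgr1, C1qa and Mrc1, which passed the filter through their WT level alone. For genes with a mean of at least 10 in both groups this share was not computed, so the filter may raise it. With the same replicate left out 3 genes, Ly6c2, Igsf6 and Clec4a2, fell at an adjusted p under 0.05 (limma), where 0.181% of all tested genes did. The order was reversed in 1 gene, Ms4a6c, where 9.46% of all tested genes had it. Leaving out any other library gave no adjusted call among the 36, where 0.00672%, 0.0134% and 0.0269% of all tested genes were lower without WT replicates 1, 2 and 3, and 0.0403% and 0.0672% without CD74-/- replicates 2 and 3. The count at a raw p under 0.05, 17 with all libraries, was 7 without WT replicate 1 (2.56% of all tested genes) and 11 without CD74-/- replicate 2 (3.72%). The median SD between replicates on the log2 scale was 0.64 in WT and 1.31 in CD74-/- cells for the 36 genes, and 0.41 and 0.54 for all tested genes.

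Several of the most negative fold changes rested in part on libraries without reads. CD74-/- replicate 2 held no read of 8 of the 37 genes (21.6%), namely Csf1r, Ccr2, Cx3cr1, Fcgr1, Vcan, Adgre1, C1qc and Mrc1, compared with 4.43% of the tested genes. CD74-/- replicate 3 held none of 4 genes, Cx3cr1, Fcgr1, Cd14 and Mrc1 (10.8%, compared with 3.86%). In WT the only such value was Cx3cr1 in replicate 2. A count of 0 allows up to 3 reads, which are 2.69 to 3.21 normalized counts in these libraries, and covers counting error only. In these genes the fitted fold change depends on the pseudocount. With DESeq2 it was -2.83 for Adgre1 and -3.10 for Mrc1, against -4.26 and -4.51 with limma. Clec4a2 and Fcgr2b, which were read in every library, also had smaller changes with DESeq2, at -1.63 and -0.76 against -2.47 and -1.21.

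Levels of different genes were compared per length, as reads in a gene per length of its exons and depth of the library (RPKM), computed from the recovered reads. The order in WT was led by Lyz2 at 1596 ± 400.1 RPKM, Cst3 at 979 ± 66.3, Lst1 at 803 ± 27.1, Fcer1g at 674 ± 231 and Tyrobp at 666 ± 346 (SD, n = 3). Lst1, Fcer1g and Tyrobp did not differ beyond the spread of the latter 2, and the value of Lst1 rests on 415 annotated exon bases. Ly6c2 followed at 84.1 ± 38.5 RPKM and Ms4a6c at 33.6 ± 1.15. In all, 5 genes were above 100 RPKM, 10 between 10 and 100, 15 between 1 and 10, and 7 under 1, among them Fcgr1, Cx3cr1, Mrc1 and Vcan. In CD74-/- cells Cst3 (943 ± 27.3) and Lyz2 (952 ± 678) were level in mean, and Fcer1g and Tyrobp were at 308 ± 44.0 and 269 ± 139 RPKM. Ly6c2 was at 14.3 ± 19.5 and Igsf6 at 1.83 ± 3.06 RPKM, beside 18.0 ± 16.3 in WT for the latter.

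Partners of these genes were described from further lists. Their counts at a raw limma p under 0.05 stand beside 4.60% of all tested genes lower and 3.14% higher. In the M-CSF axis (M-CSF, related growth factor receptors and transcription factors of monocytes), 2 of 15 tested genes were lower at a raw limma p under 0.05 and none was higher, with a median log2 fold change of -0.12. Klf4, a transcription factor that monocytes need, had 87.8, 14.3 and 101 normalized counts in the WT libraries and 6.85, 0 and 2.05 in CD74-/- cells (log2 fold change -4.17, SE 1.28, limma adjusted p = 0.517). Its adjusted p was 0.0616 with DESeq2, 0.0461 with DESeq2 on all genes and 0.608 with edgeR. Irf8, which directs progenitors to monocytes, had 599, 258 and 356 in WT and 272, 207 and 152 in CD74-/- cells. Csf1, the gene of M-CSF, was at 62.4 to 77.0 in WT and at 56.8 to 116 in CD74-/- cells.

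Of the other Fc receptors and Fc receptor-like genes, 3 of 8 tested genes were lower at a raw p under 0.05. Fcrla, a protein of B cells, was the 1 gene among them that passed the test over all genes, at 544, 149 and 309 normalized counts in the WT libraries and 1.96, 0 and 0 in CD74-/- cells (adjusted p = 0.0133 with limma, 0.0194 with edgeR and 0.721 with limma-voom), and it is also counted among the B cell markers. Of a list of genes around ITAM signaling, which also holds inhibitory receptors and kinases, 4 of 23 tested genes were lower. In 21 of them the log2 fold change was below 0, as in 52.3% of all tested genes. Pirb, an inhibitory receptor of myeloid and B cells, had 595, 149.6 and 334 in WT and 98.8, 40.6 and 70.7 in CD74-/- cells, and Syk, the kinase that ITAMs recruit, had 1285, 1106 and 936 in WT and 1151, 523 and 675 in CD74-/- cells. Limma adjusted p-values were 0.453 for Pirb and 0.690 for Syk. They were 0.0125 and 0.724 with DESeq2, and 0.5 and 0.755 with edgeR.

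Of the partners of Toll-like receptors, 2 of 20 were lower and 1 was higher at a raw p under 0.05, beside 4.60% and 3.14% of all tested genes. The values of Ly96, the co-receptor MD-2 of Tlr4, were 841, 1006 and 806 normalized counts in the WT libraries and 855, 937 and 1669 in CD74-/- cells, and those of the adaptor Myd88 were 486, 417 and 481 in WT and 832, 508 and 396 in CD74-/- cells. Both overlapped between the groups, like Tlr4 itself. The lower genes were Cd36, a scavenger receptor that cooperates with Tlr2, at 237, 52.0 and 72.8 in WT and 4.89, 0 and 3.07 in CD74-/- cells (adjusted p = 0.271 with limma and 1.7e-04 with DESeq2), and Ly86, the partner MD-1 of the receptor Cd180, at 856, 417 and 529 in WT and 427, 47.6 and 119.9 in CD74-/- cells. Cd180 was the higher one, at 42.8, 20.6 and 61.5 in WT and 223, 144 and 59.4 in CD74-/- cells. Further genes of lysosomes and the phagocyte oxidase had a median log2 fold change of -0.10, with 3 of 25 lower. Cybb, the catalytic subunit of that oxidase, had 4391, 967 and 1207 in WT and 623, 65.9 and 426 in CD74-/- cells, without overlap.

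A second list of monocyte genes that shares no gene with the 37 had a median log2 fold change of -1.50, with 14 of 32 tested genes lower and 2 higher at a raw p under 0.05. Over all tested genes the shares were 4.60% and 3.14%. This second list was read in the same 6 libraries and was chosen with earlier results of these data known, so it is no independent check. The summed level of this list was not lower in the mutant, at 75664 to 112745 normalized counts in WT and 80785 to 121512 in CD74-/- cells. Lgals3, the lectin galectin-3, had 1739, 924 and 1303 normalized counts in the WT libraries and 622, 97.3 and 101 in CD74-/- cells (log2 fold change -2.79, SE 0.63, limma adjusted p = 0.300). Its adjusted p was 0.0199 with DESeq2 and 0.601 with edgeR. Ms4a6b, a paralog of Ms4a6c with which it shares sequence, had 1069, 2079 and 1238 in WT and 3335, 3223 and 2739 in CD74-/- cells, with every CD74-/- library above every WT library (log2 fold change 1.14, SE 0.27, limma adjusted p = 0.351). For Ms4a6b the adjusted p was 0.0274 with DESeq2 and 0.51 with edgeR. Of 14 further tested genes on a tissue macrophage list, 3 (Clec7a, C5ar1 and Itgb2) were lower and none higher, with a median of -0.91. Not all of these are particular to macrophages. Clec7a, the beta-glucan receptor dectin-1, had 218, 149 and 467 in WT and 46.0, 74.0 and 40.0 in CD74-/- cells. Itgb2, the beta2 integrin CD18, is shared by leukocytes and is the gene that the study followed further. Beside RNA, the study reports lower CD18 surface protein in CD74-/- and MIF-/- cells and binding of the CD74 cytosolic domain to the gene. Those data were not examined here. Itgb2 RNA had 1244, 508 and 638 in WT and 405, 228 and 218 in CD74-/- cells. For both genes the groups did not overlap, and the limma adjusted p-values were 0.385 and 0.504. They were 0.0109 and 0.0612 with DESeq2, and 0.478 and 0.572 with edgeR.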

How the data were processed

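RNA of CD34-/LSK cells was measured in 6 libraries, 3 WT and 3 CD74-/-, all of which were used. The authors prepared the libraries with the SMART-Seq v4 kit for low input, sequenced single-end reads on a HiSeq2500, trimmed them with cutadapt, dropped those under 30 bases, mapped them to GRCm38 with STAR (2.4.2a in the submitters' processing notes), counted per gene (Ensembl release 92) with htseq-count and scaled with DESeq2. The deposited values are a signal, namely counts divided by the size factor of the library. The authors' own fold changes and p-values in the same table, and their list of thresholds, were not used. Each library has a smallest step, and all 101059 positive values (100.0%) are multiples of it within 0.006. Dividing by it returned the reads, and these counts gave the same DESeq2 size factors.

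Because the values are not raw counts, limma with a trend on log2(normalized count + 1) was the main test, over 14892 genes with a mean of at least 10, with Benjamini-Hochberg adjustment over all of them and a threshold of 0.05. On this scale fold changes of low genes depend on the pseudocount, and with a library at 0 reads they can exceed those of the count models. A two-sided exact permutation test was added for single genes. Alternatives were pseudocounts of 0.5 and 5, no filter, a minimum mean of 50, a block on the replicate number, omission of each library in turn, TMM scaling, and edgeR quasi-likelihood, DESeq2 (the study's settings) and limma-voom on the recovered reads. DESeq2 on all genes and the overlap without CD74-/- replicate 1 were added after seeing the data. The fits were checked on simulated data. Nothing states which animal gave which library, so p-values measure the spread between these libraries.

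Gene positions and exon lengths came from GENCODE vM21 (GRCm38), and promoter windows from RefSeq. Whether counting used strand is not given in the sources used here. All 37 genes are named. From the other lists, genes that passed the test, up to 4 with the smallest p and partners fixed by name may be named, and the neighbours of the Fc receptor genes were chosen after their values were seen. The members and all lists were chosen with earlier results of these data known. The versions were matplotlib 3.10.9, scipy 1.17.1, pandas 2.3.3, numpy 2.4.6 and Python 3.11.15, and for the fits DESeq2 1.42.0, edgeR 4.0.16 and limma 3.58.1 in R 4.3.3.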

Additional observations from a re-analysis of the deposited data

How the results depend on the processing

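Among the 36 tested genes the count lower at an adjusted p under 0.05 was 0 with limma and 0 with pseudocounts of 0.5 and 5, without a filter, with a mean of at least 50, with TMM scaling, with edgeR and with limma-voom. It was 1 with DESeq2 and 1 with DESeq2 on all genes (Fcer1g in both), and it ranged from 0 to 3 when each library was left out in turn, the 3 genes being called without CD74-/- replicate 1. None was higher under any of these settings. Of all tested genes, 7 were lower with limma, 87 with DESeq2, 99 with DESeq2 on all genes, 3 with limma-voom and 1 to 27 with a library left out. The higher genes numbered 6 with limma, 49 with DESeq2, 49 with DESeq2 on all genes, 3 with limma-voom and 5 to 19 with a library left out. The count at an unadjusted p under 0.05 was 17 with limma, 8 with edgeR and 7 to 19 with a library left out, and the count without overlap was 10, and 10 to 22 with a library left out. The median log2 fold change of -1.22 ranged from -1.72 to -0.71 with a library left out. The causes of these differences were not tested.

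With the replicate block, 1 of the 36 genes (Ly6c2, limma adjusted p = 0.0252) and 21 of all genes were lower. Deviations from the group means of same-numbered libraries correlated at 0.116, 0.072 and 0.019, and WT replicate 3 correlated better with CD74-/- replicate 2 (0.053) than with its own number, so that the numbers were not taken to pair the libraries.

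Of the single-gene log2 fold changes, 547 values kept their direction and side of the threshold, 6 values of 4 genes passed it under an alternative alone, and 15 values of 8 genes changed sign. With each library left out in turn, Cx3cr1 (-0.37 with all libraries) ranged from -2.25 (without CD74-/- replicate 1) to 1.40 (without WT replicate 1) and was 0.57 without CD74-/- replicate 2 or 3. Clec12a ranged from -0.26 to 0.51, with -0.03 without WT replicate 3, and Tlr7 from -0.31 to 1.03. Cd14, Cd68 and Psap ranged from -2.17 to 0.56, from -0.78 to 0.54 and from -0.34 to 0.03, each highest without CD74-/- replicate 3. Cst3 went down to -0.06 (without WT replicate 2), with -0.01 and -0.02 without CD74-/- replicates 1 and 2. Cd163 ranged from -0.33 to 0.55, with -0.24 and -0.11 without WT replicate 2 and CD74-/- replicate 2. With 3 libraries per group no exact test can fall below 0.1, and where a group is left with 2 libraries limma takes their spread from all genes and both groups. Genes near 0 reads, such as Cx3cr1, Fcgr1 and Vcan, are limited by depth.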
